A study of Mus musculus with 6 samples.

Results

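The genes for Fc receptors and their signaling adaptors were followed in cells sorted as CD8+ TRLs, T regulatory-like cells, of the mouse. They were 7 of the 24394 gene symbols in the count table, taken by name: the Fc gamma receptor genes *Fcgr1*, *Fcgr2b*, *Fcgr3* and *Fcgr4*, the adaptor genes *Fcer1g* and *Tyrobp*, and the kinase gene *Syk*. This list of names was chosen with earlier results of these data known. All 7 had counts and passed the filter on low counts. The 3 groups of 2 libraries each were the brain of mice 3 days after tMCAO (a 60-minute transient occlusion of the middle cerebral artery), the blood of mice 3 days after tMCAO, and the blood of mice 3 days after a sham operation. Per the labels, all mice were wild type of the C57BL/6NCrl background, 9 weeks old, and the series gives them as male. Each sample was 500 to 1000 cells gated as CD8+CD122+CD49d low, sequenced in bulk as paired reads of 75 bases. A brain group from sham mice was not analysed here, so brain and blood of the same kind of mouse can be compared after tMCAO only, and in tMCAO brain against sham blood the tissue and the occlusion cannot be told apart. The sources do not say whether a sample came from 1 mouse or from a pool, so the p-values measure the spread between these libraries, which may be technical.

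Fc receptors bind the constant part of antibodies. The activating Fc gamma receptors hold no signaling motif of their own and pair with the common gamma chain, the product of *Fcer1g*, whose immunoreceptor tyrosine-based activation motif (ITAM) is phosphorylated by Src family kinases such as LYN and then docks the kinase SYK. FCGR2B, the inhibitory Fc gamma receptor, carries an inhibitory motif (ITIM) in its own tail that recruits the phosphatase SHIP1, and DAP12, the product of *Tyrobp*, is the ITAM adaptor of receptors such as TREM2. Macrophages, microglia, neutrophils and other phagocytes are known for these genes, B cells for *Fcgr2b* and *Syk*, and T cells for the corresponding pair of CD3 zeta (*Cd247*) and ZAP-70. Some receptors of NK cells and cytotoxic T cells also pair with the products of *Fcer1g* or *Tyrobp*.

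The motifs at the centre of this pathway are shown as coding sequence of the reference transcripts (GENCODE M21, GRCm38), with the codons of each motif's tyrosine boxes in capitals, because adaptors and inhibitory receptor are told apart by them. In *Fcer1g* the ITAM spans residues 65 to 79 and is split over 2 exons on the minus strand (chr1:171229889-171230072). In *Tyrobp* it spans residues 92 to 106, over 2 exons on the plus strand (chr7:30415670-30417382). The ITIM of *Fcgr2b* lies at residues 317 to 322, in 1 exon on the minus strand (chr1:170961062-170961097), and is given with 3 codons on either side.
Fcer1g ITAM: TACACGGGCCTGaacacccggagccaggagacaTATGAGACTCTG
Tyrobp ITAM: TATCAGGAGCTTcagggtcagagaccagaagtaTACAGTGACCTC
Fcgr2b ITIM: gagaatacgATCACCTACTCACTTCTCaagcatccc

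Members of the family lie close together and resemble each other, which bears on how reads were assigned. On chromosome 1 of GRCm38 lie *Fcgr2b* (chr1:170958617-170976547, minus strand), *Fcgr4* (chr1:171018920-171029761, plus strand), *Fcgr3* (chr1:171051174-171064935, minus strand) and *Fcer1g* (chr1:171229572-171234365, minus strand). The other members are *Fcgr1* (chr3:96282909-96293969, minus strand), *Tyrobp* (chr7:30413760-30417585, plus strand) and *Syk* (chr13:52583173-52648792, plus strand). *Fcgr2b* and *Fcgr3* share an identical run of 129 coding bases, over 2 exons of each gene (chr1:170966674-170968081 in *Fcgr2b* and chr1:171054167-171057792 in *Fcgr3*), which is printed because a read inside it fits both genes.
Fcgr2b and Fcgr3 shared: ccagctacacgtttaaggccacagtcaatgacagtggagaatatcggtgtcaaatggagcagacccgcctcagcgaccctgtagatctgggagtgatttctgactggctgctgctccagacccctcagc
Of all windows of 75 bases, the read length, in the coding transcripts of *Fcgr3*, 94 of 1627 (5.78%) are found unchanged in *Fcgr2b*, as are 94 of 3791 (2.48%) of those of *Fcgr2b* in *Fcgr3*, and no other pair of the 7 genes shares one. The count table sets reads without a unique alignment apart from the genes (14.0% to 22.0% of reads per library). Reads that fit both genes may thus be missing from both counts, and how they were assigned was not tested.

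The bases before the start sites are given as a description of the genes. RefSeq (GRCm38.p6) gave promoters for 6 of the 7 genes, and *Tyrobp* had no entry. In the 120 bases before each start site GAGGAA, the core of sites bound by the myeloid factor PU.1, was searched on both strands (TTCCTC on the other) and is set in capitals. It was found in 5 of the 8 windows of the 6 genes (*Fcgr1*, *Fcgr4*, both start sites of *Fcgr3*, and 1 of the start sites of *Syk*), and in 11.6% of the 32851 windows of all genes. The windows of *Fcgr2b* and *Fcer1g* and the other window of *Syk* held no match, although *Fcgr2b* moved with the other receptor genes. By GENCODE these 3 windows hold 57, 16 and 120 bases of exon, so they are partly or wholly transcribed in that annotation. Windows with a match hold 0 to 29. Only windows with a match are printed, and a link of the motif to the levels was not tested. The windows of the start sites of *Fcgr3* overlap and hold the same match. A match is a description of these letters and not a bound site.
Fcgr1 (chr3:96293970-96294089, minus): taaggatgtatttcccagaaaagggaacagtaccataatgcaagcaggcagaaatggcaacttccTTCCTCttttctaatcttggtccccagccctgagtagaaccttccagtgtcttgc
Fcgr3 (chr1:171059395-171059514, minus): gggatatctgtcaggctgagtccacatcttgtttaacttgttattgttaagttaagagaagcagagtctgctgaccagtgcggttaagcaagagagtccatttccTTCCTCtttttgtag
Fcgr4 (chr1:171018806-171018925, plus): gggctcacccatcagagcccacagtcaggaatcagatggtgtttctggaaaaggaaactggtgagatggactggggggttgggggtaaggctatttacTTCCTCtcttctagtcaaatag
Around this match the windows of *Fcgr1* and *Fcgr3* share a run of 14 bases, TTCCTTCCTCTTTT, which the windows of no other gene among 27025 hold on either strand. The run was noticed after the sequences had been viewed.

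Genes held 13793081 to 17149924 counts per library. Levels are TMM-normalized CPM, the counts of a gene as a part of all counts on genes in its library, on a common scale, and differences were tested with edgeR's quasi-likelihood test in 1 fit of all 6 libraries, with p-values adjusted by Benjamini-Hochberg over 12424 genes and a call at an adjusted p under 0.05 with more than a 2-fold change. The brain libraries stood apart from their sort label. The 6 genes of the sort and of T cell identity (*Cd8a*, *Cd8b1*, *Il2rb*, *Itga4*, *Cd3e*, *Cd3d*) summed to 71.5 and 66.8 CPM in tMCAO brain, against 6022 and 6927 CPM in tMCAO blood and 5334 and 4909 CPM in sham blood. All 6 were called lower in tMCAO brain than in either blood group. *Itga4* encodes CD49d, for which the gate was low in every group, so a low level alone does not depart from the label. It made up most of the brain sum, with 40.4 ± 3.85 CPM (SD, n = 2). Blood libraries sorted with the same gate averaged 412 (tMCAO) and 307 CPM (sham) of *Itga4*. The log2 fold changes of *Itga4* in brain were -3.35 and -2.92, so brain was below libraries that share its label. The cause of this gap was not tested. The 15 monocyte and macrophage markers, led by *Lyz2*, *Ctss* and *Cd14*, summed to 43569 and 40054 CPM in tMCAO brain, 1468 and 1893 CPM in tMCAO blood and 2506 and 4013 CPM in sham blood. *Ly6c2*, named after its values were seen, was the 1 marker called lower in tMCAO brain than in the blood groups, with 68.1 ± 22.9 CPM in tMCAO brain, 1146 ± 310.2 CPM in tMCAO blood and, for sham blood, 1286 ± 151 CPM (SD, n = 2), and made up most of the sum in tMCAO blood. The 12 microglia markers summed to 8969 and 19935 CPM in tMCAO brain, 266 and 196 CPM in tMCAO blood and 256 and 188 CPM in sham blood. All results in brain rest on these 2 libraries. In bulk RNA, fewer cells of a type and less RNA per cell cannot be told apart, and the part of these other cells in the results below was not tested.

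All of the activating receptor genes were higher in tMCAO brain than in either blood group. *Fcgr1* encodes the high-affinity receptor for IgG. It measured 451 and 413 CPM in tMCAO brain, had no counts in either tMCAO blood library, and measured 1.22 and 3.29 CPM in sham blood. The brain libraries lay far above all 4 blood libraries, and the blood groups did not overlap. Against a floor of 3 counts over the 2 libraries, *Fcgr1* was at least 5248-fold higher in tMCAO brain than in tMCAO blood (adjusted p = 0.000216), and against sham blood its log2 fold change was 7.58 ± 0.58 (SE, adjusted p = 0.000565).

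*Fcgr3*, whose product binds immune complexes with low affinity, had the highest level of the receptors per length of exon in brain. It measured 2352 and 2999.6 CPM in tMCAO brain, 3.05 and 6.96 CPM in tMCAO blood, and 9.08 and 22.7 CPM in sham blood. Brain was above blood in every library, with log2 fold changes of 9.06 ± 0.74 over tMCAO blood (SE, adjusted p = 0.000302) and 7.40 ± 0.69 over sham blood (adjusted p = 0.000612). *Fcgr4*, a receptor for IgG2a and IgG2b in mice, measured 260.5 and 212 CPM in tMCAO brain, had no counts in tMCAO blood, and measured 4.84 and 3.65 CPM in sham blood. It was at least 2869-fold higher in tMCAO brain than in tMCAO blood (adjusted p = 0.000106) and 5.80 ± 0.36 higher on the log2 scale than in sham blood (adjusted p = 0.000314).

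The inhibitory receptor gene *Fcgr2b* moved the same way. It measured 1400.4 and 1262 CPM in tMCAO brain, 7.35 and 7.48 CPM in tMCAO blood, and 35.0 and 29.3 CPM in sham blood, with close replicates and no overlap between any of the groups. Its log2 fold change was 7.49 ± 0.33 in tMCAO brain over tMCAO blood (SE, adjusted p = 0.000106) and 5.37 ± 0.30 over sham blood (adjusted p = 0.000172).

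The adaptor genes had the highest levels of the 7 per length of exon in brain. *Fcer1g* had 3589.6 and 3764 CPM in tMCAO brain, 22.5 and 189.6 CPM in tMCAO blood, and 153 and 173 CPM in sham blood. Both brain libraries were above all blood libraries, but the tMCAO blood libraries differed 8.42-fold from each other and lay on either side of sham blood. The log2 fold change was 5.12 ± 0.95 in tMCAO brain over tMCAO blood (SE, adjusted p = 0.0068) and 4.49 ± 0.92 over sham blood (adjusted p = 0.0113). The call against sham blood was lost without either brain library or either sham blood library (adjusted p between 0.0562 and 0.0761). *Tyrobp* had 3675 and 3672 CPM in tMCAO brain, 14.0 and 41.9 CPM in tMCAO blood, and 87.5 and 115 CPM in sham blood, so that the groups did not overlap. It was higher in tMCAO brain by 7.04 ± 0.64 on the log2 scale over tMCAO blood (SE, adjusted p = 0.000428) and by 5.18 ± 0.58 over sham blood (adjusted p = 0.00116).

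*Syk*, the kinase that binds phosphorylated ITAMs, had a much lower level per length of exon than the adaptors in brain. It measured 68.1 and 64.9 CPM in tMCAO brain, had no counts in either tMCAO blood library, and measured 11.5 and 10.8 CPM in sham blood. The replicates of each group agreed closely and the groups did not overlap. *Syk* was at least 808-fold higher in tMCAO brain than in tMCAO blood (adjusted p = 0.000149), and its log2 fold change over sham blood, 2.58 ± 0.34 (SE, adjusted p = 0.00328), was the smallest of the 7 genes in that comparison.

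**Figure D1:**
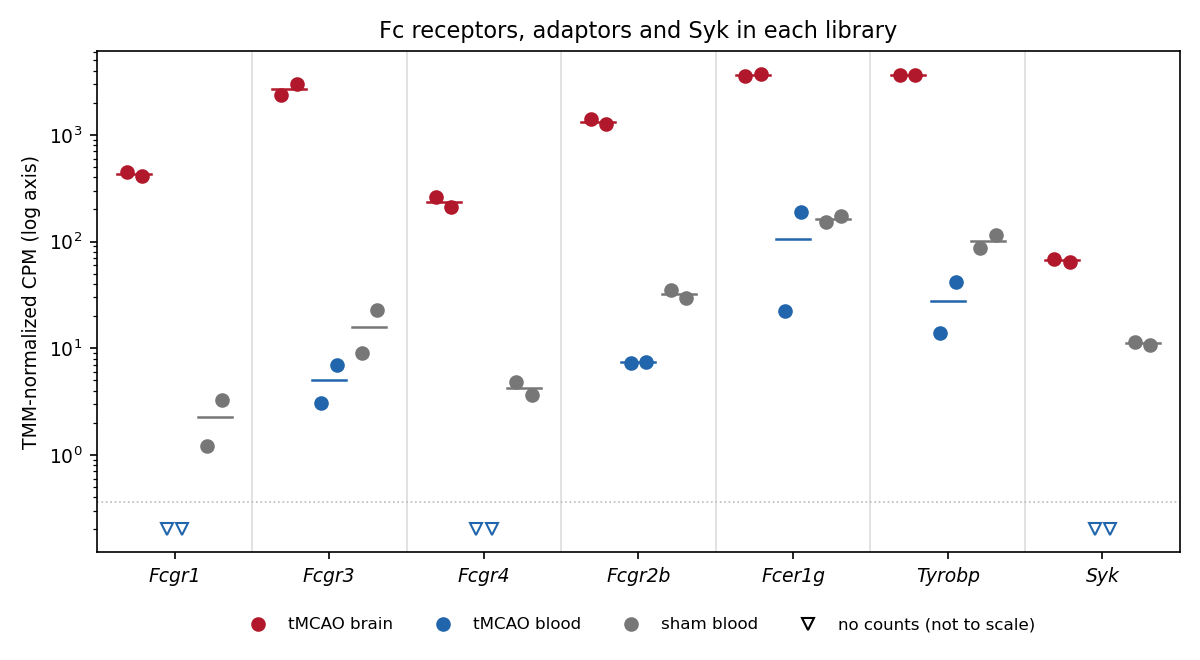
TMM-normalized CPM of the 7 genes (log axis) in the 6 libraries, each point 1 library and each bar the mean of 2. Every gene is higher in both brain libraries than in any blood library, and *Fcgr1*, *Fcgr4* and *Syk* have no counts in tMCAO blood (open triangles, placed below the scale).

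In all, 7 of 7 genes were called higher in tMCAO brain than in tMCAO blood, where 20.4% of all genes tested were called higher and 13.2% lower, and 7 of 7 were called higher in tMCAO brain than in sham blood, where 18.7% of all genes were called higher and 11.8% lower. The median log2 fold change of the 7 was 9.06 over tMCAO blood, beside 0.05 for all genes tested, and 5.37 over sham blood, beside 0.13. The split of all genes depended on the scaling. By library size alone 1938 were higher and 2863 lower over tMCAO blood (1606 and 2709 over sham blood). When T cell genes set the scale, 11795 were higher and 15 lower (11731 and 26 over sham blood). All 7 kept their direction and call under either scaling. With the T cell genes nearly all genes were called higher, so a kept call there says little about the 7. The comparisons share the brain libraries. With 2 libraries a group, an exact permutation test of a single gene cannot go under a p of 0.33, so the calls rest on the fit across all genes. Together the 7 genes took 0.928% and 0.965% of the counts on genes in tMCAO brain, 0.00566% and 0.0245% in tMCAO blood, and 0.0350% and 0.0417% in sham blood.

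Between the blood groups the differences ran the other way. *Fcgr1*, *Fcgr4* and *Syk* were without counts in tMCAO blood but were counted in both sham blood libraries (24 and 64 counts, 95 and 71 counts, and 226 and 210 counts), which makes them at least 27.4-fold (adjusted p = 0.0463), 51.5-fold (adjusted p = 0.00857) and 135-fold (adjusted p = 0.00831) lower in tMCAO blood by edgeR's test. *Fcgr2b* fell by 2.12 on the log2 scale (SE 0.26, adjusted p = 0.0190). The other members did not pass: the log2 fold change was -1.67 ± 0.55 for *Fcgr3* (SE, adjusted p = 0.455), -1.86 ± 0.51 for *Tyrobp* (adjusted p = 0.298) and -0.62 ± 0.80 for *Fcer1g* (adjusted p = 0.903).

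Thus 4 of 7 genes were called lower in tMCAO blood than in sham blood, where 0.821% of the 12424 genes were called lower and 0% higher (0 genes by edgeR and 0 by limma-voom, 13 by DESeq2 on all samples and 7 on the blood libraries, and 970 genes in either direction at an unadjusted p under 0.05). The groups did not overlap for 6 of the 7 genes, all 6 lower in tMCAO blood, as for 18.6% of all genes tested (17% were higher without overlap), and the median log2 fold change was -2.12, beside 0.03 for all genes. Each of the 4 calls was lost without brain library 1 or 2, which are in neither group compared but enter the fit, the filter and the scaling, and the call of *Fcgr1* was also lost without tMCAO blood 2 or sham blood 2 and that of *Fcgr2b* without either sham blood library. For *Fcer1g* the direction rested on 1 library: without tMCAO blood 1 the log2 fold change was 0.21 (adjusted p = 0.494), and without tMCAO blood 2 it was -2.89 (adjusted p = 0.0132). *Tyrobp* was called lower without tMCAO blood 1 (-1.27, adjusted p = 0.0409) and without tMCAO blood 2 (-2.89, adjusted p = 0.0186).

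Some markers of monocytes, macrophages and B cells moved with these genes, and markers of several other cells did not. Of the monocyte and macrophage markers, 6 of 15 were called lower in tMCAO blood than in sham blood. Of the 15, *Csf1r*, *Adgre1*, *Mpeg1* and *Mrc1* had no counts in tMCAO blood. The 8 B cell markers in the table summed to 31.0 and 86.2 CPM in tMCAO blood and 1042 and 612 CPM in sham blood, and 3 of the 7 tested were called lower. *Pax5* and *Ebf1* had no counts in tMCAO blood. Not called were 9 of the monocyte and macrophage markers and 4 of the B cell markers. Calls were absent for microglia (0 of 12), NK cell (0 of 7) and neutrophil markers (0 of 3). Of 8 dendritic cell markers, 1 was called lower. The share of all genes called lower was 0.821%. Of the sort markers, *Cd8a* had a log2 fold change of 0.20 ± 0.30 in tMCAO blood against sham blood (SE, adjusted p = 0.924 by edgeR). The part of these cells in the result was not tested.

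**Figure D2:**
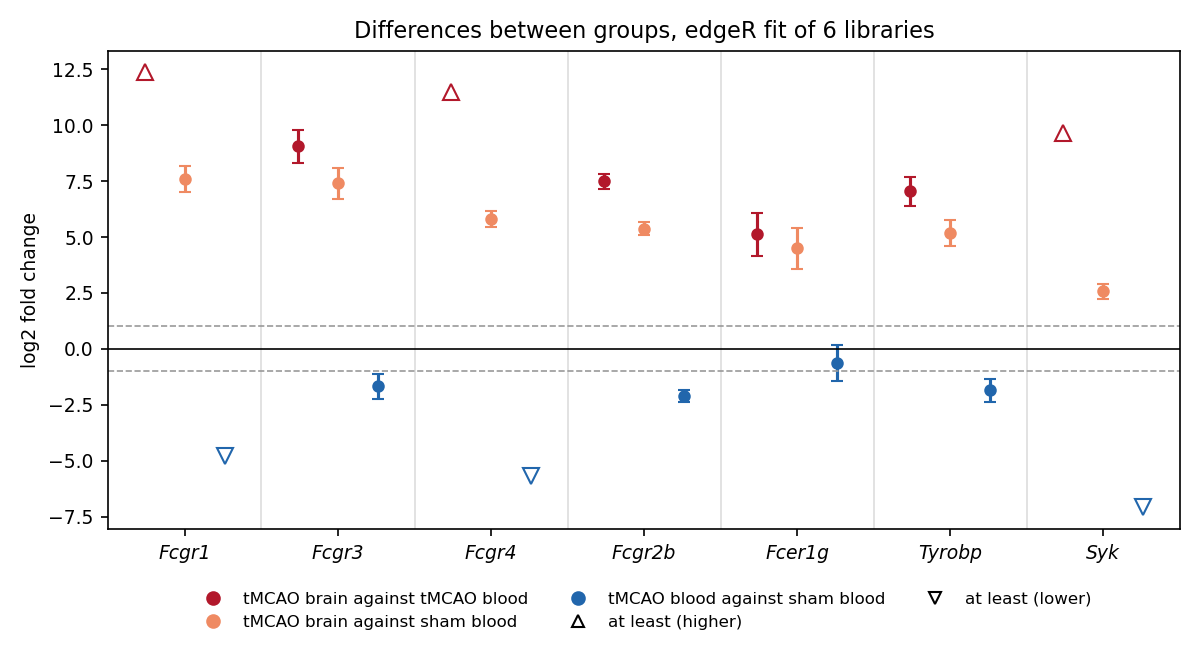
Log2 fold change of the 7 genes in the 3 comparisons, with 1 SE worked back from edgeR's test, dashed lines at a 2-fold change, and open triangles for bounds against a group without counts. All values for tMCAO brain lie at or above 2.58, and all values for tMCAO blood against sham blood lie below 0, that of *Fcer1g* within 1 SE of it.

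Levels of different genes were compared per length of exon, as TMM-normalized CPM per kilobase. In tMCAO brain *Tyrobp* (5510.1 and 5505) stood above *Fcer1g* (4107 and 4306.5), *Fcgr3* (1355 and 1728), *Fcgr2b* (242 and 218), *Fcgr4* (207 and 169), *Fcgr1* (174 and 159.7) and *Syk* (7.27 and 6.94). Among neighbours in this order only *Fcgr4* and *Fcgr1* overlapped. Of 23350 genes with a length, *Tyrobp* ranked 9 and 12 and *Fcer1g* ranked 15 and 20 in the brain libraries, *Fcgr3* ranked 35 and 30, and *Syk* 4757 and 4888.

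The order in blood was another one. In sham blood, on the same scale, *Fcer1g* (175 and 198) stood above *Tyrobp* (131 and 172), *Fcgr3* (5.23 and 13.1), *Fcgr2b* (6.05 and 5.06), *Fcgr4* (3.86 and 2.90), *Syk* (1.23 and 1.15) and *Fcgr1* (0.473 and 1.27), with *Fcgr3* overlapping *Fcgr2b* and *Syk* overlapping *Fcgr1*. In tMCAO blood *Fcer1g* (25.8 and 217) overlapped *Tyrobp* (20.9 and 62.8), and *Fcgr3* (1.76 and 4.01) stood above *Fcgr2b* (1.27 and 1.29), an order that the FPKM of the authors do not show (3.35 and 5.17 for *Fcgr3*, 5.61 and 5.11 for *Fcgr2b*). The adaptors thus ranked among the well-expressed genes in sham blood too, *Fcer1g* at 303 and 253 and *Tyrobp* at 412 and 300.

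The share of *Fcgr2b* in the receptor transcripts was lower in brain than in blood. *Fcgr3* made up 72.2 ± 5.29% of the counts per kilobase of the 4 Fc gamma receptors in tMCAO brain (SD, n = 2), 66.8 ± 12.4% in tMCAO blood and 46.0 ± 17.8% in sham blood, and its brain libraries (68.5% and 76.0%) overlapped those of tMCAO blood (58.1% and 75.6%). The inhibitory *Fcgr2b* made up 10.9 ± 1.87% in tMCAO brain, 33.2 ± 12.4% in tMCAO blood and 30.7 ± 11.4% in sham blood. *Fcgr1* and *Fcgr4* made up 7.91 ± 1.26% and 8.95 ± 2.17% in tMCAO brain, were absent from the counts in tMCAO blood, and made up 4.36 ± 1.88% and 18.9 ± 8.27% in sham blood, so that the *Fcgr4* share in brain lay between those of the blood groups. The *Fcgr2b* share was below that of every blood library in both brain libraries, while its blood groups overlapped. The shares rest on 48441 and 53432 counts of the 4 genes in tMCAO brain, 201 and 247 in tMCAO blood, and 984 and 1148 in sham blood.

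Expressed as a ratio, the activating receptors (*Fcgr1*, *Fcgr3* and *Fcgr4*) over *Fcgr2b* came to 7.18 and 9.43 in tMCAO brain, 1.39 and 3.10 in tMCAO blood, and 1.58 and 3.41 in sham blood. The mean was 8.31 ± 1.59 in tMCAO brain, 2.24 ± 1.21 in tMCAO blood and 2.49 ± 1.29 in sham blood (SD, n = 2 each), so that brain lay above blood by more than the spread and the blood groups overlapped. No test was made of these ratios. With *Fcgr2b* and *Fcgr3* alone, in raw counts, *Fcgr3* took 62.7% and 70.4% of their sum in tMCAO brain (exact 95% intervals 62.2 to 63.1% and 70.0 to 70.8%), 29.4% and 48.2% in tMCAO blood (23.2 to 36.2% and 41.8 to 54.6%), and 20.6% and 43.6% in sham blood (17.9 to 23.4% and 40.6 to 46.8%). The intervals cover counting error only, and replicates differed by more than that in all 3 groups. In the FPKM table of the authors, the genes stand in 1 joined entry in brain (2455 and 2804 FPKM) and in sham blood (33.7 and 43.3 FPKM), and apart in tMCAO blood only, where *Fcgr2b* had 5.61 and 5.11 FPKM and *Fcgr3* 3.35 and 5.17 FPKM.

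**Figure D3:**
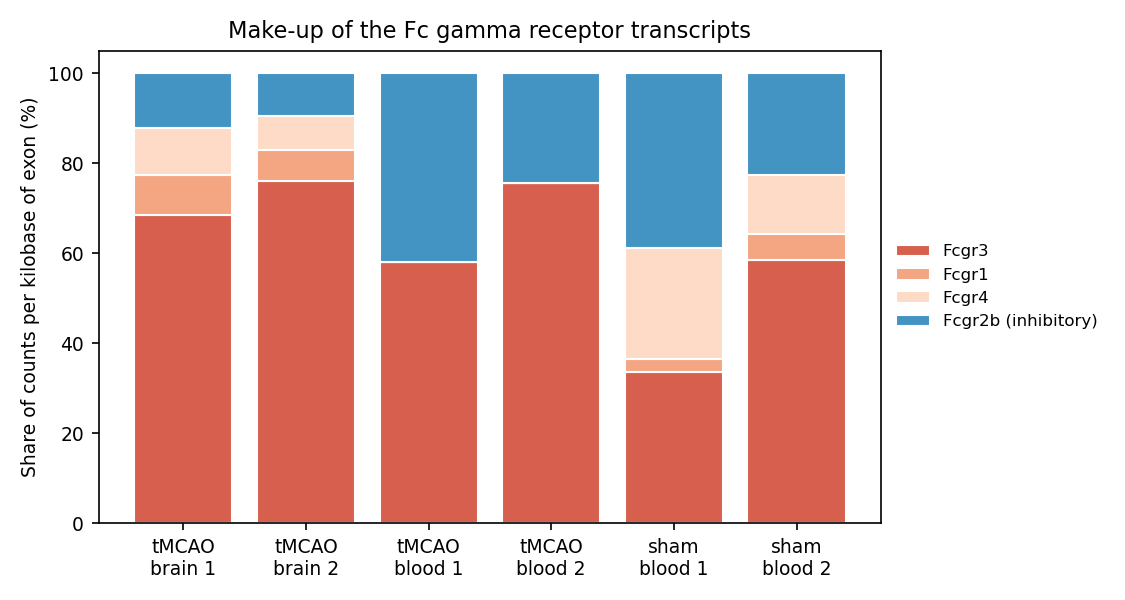
Share of each Fc gamma receptor gene in the counts per kilobase of exon of all 4, in percent, for each library. *Fcgr2b* takes 12.2% and 9.59% in the brain libraries and between 22.7% and 41.9% in the blood libraries, and tMCAO blood holds no counts of *Fcgr1* or *Fcgr4*.

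The activating receptors were also set against the common gamma chain that they need at the cell surface. Their summed level per kilobase was 0.423 and 0.477 of that of *Fcer1g* in tMCAO brain, 0.0683 and 0.0185 in tMCAO blood, and 0.0546 and 0.0870 in sham blood. The level of *Fcer1g* per kilobase was thus above the sum of these receptor genes in all 6 libraries, by less in brain than in blood. These transcript ratios depend on the lengths used and do not give the ratio of the proteins in the complex.

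The ITAM kinases *Syk* and *Zap70* had opposite orders in brain and blood. *Zap70*, the T cell receptor counterpart of *Syk*, measured 0.829 and 0.274 CPM in tMCAO brain, 121 and 51.4 CPM in tMCAO blood and 109 and 114 CPM in sham blood, and its log2 fold change in tMCAO brain was -7.27 ± 0.67 against tMCAO blood (SE, adjusted p = 0.00045) and -7.64 ± 0.67 against sham blood (adjusted p = 0.000512). In the FPKM of the authors *Syk* over *Zap70* was 36.0 and 44.6 in tMCAO brain, 0 in both tMCAO blood libraries, where *Syk* is listed at 0, and 0.0446 and 0.0709 in sham blood. In brain these ratios rest on 9 and 3 counts of *Zap70*. *Cd247*, the adaptor of the T cell receptor (CD3 zeta), measured 3.96 and 3.29 CPM in tMCAO brain, 451 and 408 CPM in tMCAO blood and 357 and 336 CPM in sham blood. It was lower in tMCAO brain by edgeR's test against both blood groups (log2 fold changes -6.89 ± 0.32 and -6.58 ± 0.31, adjusted p = 0.000106 and 0.000172). In CPM per kilobase *Cd247* stood at 0.744 and 0.618 in tMCAO brain, 84.7 and 76.6 in tMCAO blood, and 67.1 and 63.1 in sham blood. It was thus below *Fcer1g* and *Tyrobp* in brain and also in sham blood, while in tMCAO blood it was above *Tyrobp* and between the libraries of *Fcer1g*.

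**Figure D4:**
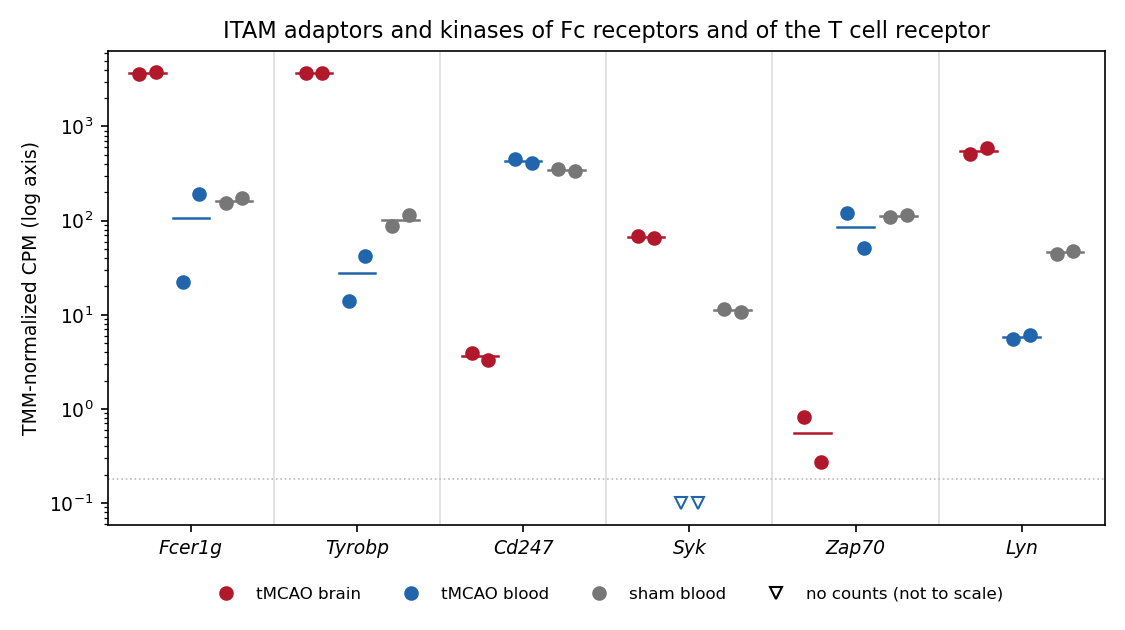
TMM-normalized CPM (log axis) of ITAM adaptors and kinases in the 6 libraries, each point 1 library and each bar the mean of 2. *Fcer1g*, *Tyrobp*, *Syk* and *Lyn* are highest in the brain libraries, and *Cd247* and *Zap70* are lowest there, with *Zap70* at 0.829 and 0.274 CPM.

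The other genes of the pathway were counted by lists. Of 12 T cell counterparts (CD3 chains, *Zap70* and T cell adaptors), 12 were called lower in tMCAO brain than in tMCAO blood and 12 than in sham blood, among them *Cd8a* (2.25 ± 0.0767 CPM in tMCAO brain against 1040.5 ± 347 CPM in tMCAO blood; SD, n = 2) and *Cd8b1*. Between the blood groups their log2 fold changes lay between -0.37 and 0.91, the smallest adjusted p was 0.473, and 1 of the 12 had an unadjusted p under 0.05.

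Among 25 kinases and effectors downstream of the ITAM, 16 were called higher and 2 lower in tMCAO brain than in tMCAO blood, 14 higher and 2 lower than in sham blood, and 5 were called lower in tMCAO blood than in sham blood. *Lyn*, a Src family kinase that phosphorylates ITAMs and ITIMs, averaged 552 ± 64.0 CPM in tMCAO brain, 5.75 ± 0.379 CPM in tMCAO blood and, for sham blood, 46.0 ± 2.58 CPM (SD, n = 2), with log2 fold changes of 6.58 ± 0.31 in tMCAO brain over tMCAO blood, 3.59 ± 0.26 over sham blood and -2.997 ± 0.26 in tMCAO blood against sham blood (SE, adjusted p = 0.000106, 0.000285 and 0.00832). The linker genes *Lat2* and *Blnk* were called in the same directions in all 3 comparisons, *Blnk* with 2 counts in all of tMCAO blood against 1603 in sham blood. *Rac2*, a GTPase that lymphocytes also use, was named after its values were seen and went the other way, with 455 ± 3.61 CPM in tMCAO brain, against 2372 ± 222 CPM in tMCAO blood and, for sham blood, 2140.3 ± 113 CPM (log2 fold changes -2.38 ± 0.27 and -2.23 ± 0.27).

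Among 17 tested receptors that pair with *Fcer1g* or *Tyrobp*, 13 were called higher and 3 lower in tMCAO brain than in tMCAO blood, 11 higher and 3 lower than in sham blood, and 3 lower in tMCAO blood than in sham blood. *Trem2*, the lipid receptor that signals through DAP12, measured 961 and 1258 CPM in tMCAO brain, 0.362 and 0 CPM in tMCAO blood and 0.255 and 1.54 CPM in sham blood, and the blood groups overlapped. *Clec4d*, a C-type lectin receptor, averaged 159 ± 16.4 CPM in tMCAO brain, 0.103 ± 0.146 CPM in tMCAO blood and, for sham blood, 1.05 ± 0.765 CPM (SD, n = 2), and *Cd300ld*, a member of the CD300 family, had 136 ± 45.0 CPM in tMCAO brain, no counts in tMCAO blood, and 7.68 ± 0.762 CPM in the sham blood group. The 3 that were lower in brain in both comparisons, *Klrk1*, *Klrc2* and *Ncr1*, encode receptors of NK cells and cytotoxic T cells: *Klrk1* averaged 4.81 ± 2.12 CPM in tMCAO brain, 569.7 ± 183 CPM in tMCAO blood and, for sham blood, 653 ± 23.3 CPM.

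Of 20 inhibitory phosphatases, receptors and ubiquitin ligases, 11 were called higher and 3 lower in tMCAO brain than in tMCAO blood, 8 higher and 2 lower than in sham blood, and 4 lower in tMCAO blood than in sham blood. *Inpp5d*, which encodes SHIP1, the phosphatase that the ITIM of FCGR2B recruits, measured 185 and 172 CPM in tMCAO brain, 30.5 and 11.6 CPM in tMCAO blood and 26.4 and 30.3 CPM in sham blood. It was higher in tMCAO brain by 3.08 ± 0.47 on the log2 scale over tMCAO blood (SE, adjusted p = 0.00315) and by 2.66 ± 0.46 over sham blood (adjusted p = 0.00595), and its blood groups overlapped. *Ptpn6*, which encodes the phosphatase SHP-1, was not called: it averaged 475 ± 12.1 CPM in tMCAO brain, 261 ± 75.8 CPM in tMCAO blood and, for sham blood, 465 ± 79.8 CPM (SD, n = 2; adjusted p = 0.0622 and 0.95 for tMCAO brain against the blood groups). The ITIM receptor gene *Lilrb4a* averaged 1715 ± 178 CPM in tMCAO brain, 37.1 ± 11.3 CPM in tMCAO blood and, for sham blood, 51.1 ± 9.70 CPM, and *Sirpa*, *Pirb* and the adaptor gene *Dok3* were called higher in brain in both comparisons and lower in tMCAO blood than in sham blood, with 2, 1 and 0 counts in tMCAO blood.

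The other Fc receptor genes did not move as one. Of 8 tested, 3 were called higher and 1 lower in tMCAO brain than in tMCAO blood, 3 higher and 3 lower than in sham blood, and 1 lower in tMCAO blood than in sham blood. *Fcgrt*, the neonatal Fc receptor that recycles IgG, averaged 269 ± 53.3 CPM in tMCAO brain, 33.7 ± 5.45 CPM in tMCAO blood and, for sham blood, 43.0 ± 3.40 CPM (SD, n = 2), with log2 fold changes of 3.00 ± 0.29 and 2.64 ± 0.28 in tMCAO brain (SE, adjusted p = 0.000538 and 0.000975). *Fcrl1*, known from B cells, was higher in tMCAO brain, with 60.9 CPM on average there, against 9.54 CPM in tMCAO blood and an average of 22.5 CPM in sham blood, and *Fcrlb* was higher too. *Trim21*, a cytosolic antibody receptor, was called lower in tMCAO brain than in tMCAO blood only (log2 fold changes -2.10 ± 0.50 against tMCAO blood and -1.32 ± 0.49 against sham blood, adjusted p = 0.0179 and 0.0812). The 3 lower than in sham blood, *Fcer2a*, *Fcmr* and *Fcrla*, are also known from B cells, and averaged 0.0918 ± 0.00048, 0 and 2.16 ± 0.183 CPM in tMCAO brain, against 68.3 ± 28.7, 129.8 ± 48.4 and 60.2 ± 33.8 CPM in sham blood.

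**Figure D5:**
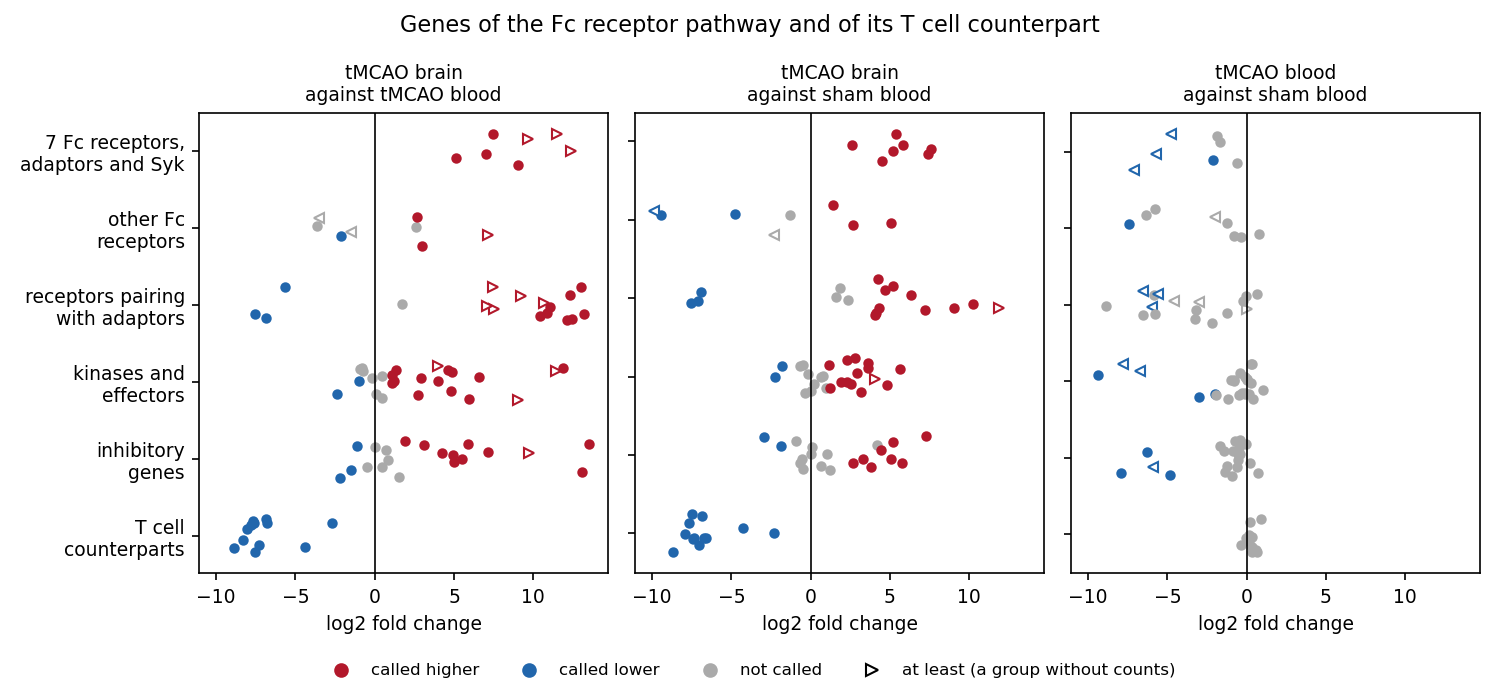
Log2 fold changes of the tested genes of 6 lists in the 3 comparisons (1 point per gene, spread vertically at random), coloured by call, with open triangles for bounds against a group without counts. The 12 T cell counterparts lie below 0 in both brain panels, and the 7 Fc receptor, adaptor and kinase genes lie above it.

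Over the 6 libraries, and as a description only, genes most like a member in log2 CPM included *Deptor*, *Plxnb2* and *Slc37a2* for *Fcgr1* (Pearson r = 0.999 each), *Plxna4os1* and *Tlr1* for *Fcgr2b* (0.998 to 0.999), and *Snx18*, *Fam213b* and *Rasa4* for *Fcgr3* (0.999). For *Fcgr4* they included *Lrrc75a*, *Cd180* and *Hfe* (0.998 to 0.999), for *Fcer1g* *Hmga2-ps1*, *Bnip3* and *Spen* (0.997 to 0.998), for *Tyrobp* *Zeb2*, *App* and *Tpd52* (0.998), and for *Syk* *Plbd1* (0.998). The 6 points share 3 groups, and the number of genes with r over 0.99 ran between 24 for *Fcer1g* or *Syk* and 108 for *Fcgr3*. Among the members themselves r lay between 0.802 (*Fcer1g* and *Syk*) and 0.992 (*Fcgr1* and *Fcgr2b*).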

How the data were processed

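The authors sequenced SMART-Seq and Nextera XT libraries of sorted cells as paired reads of 75 bases, checked them with FastQC and mapped them to GRCm38 (mm10) with TopHat; versions of these tools and the annotation release are not stated there. Abundances were estimated with Cufflinks on Ensembl genes. The authors deposited raw counts per gene symbol, with no normalization, and FPKM values. In the count table, 60.1% to 65.7% of reads fell in 5 rows without a gene name, left out together with 27 rows with dates for symbols. The 6 libraries held 13793081 to 17149924 counts on genes. The count table, one row per symbol, gave all main tests.

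Genes passed filterByExpr (minimum 10 counts, total 15), libraries were scaled by TMM, and edgeR 4.0.16 in R 4.3.3 (glmQLFit, glmQLFTest) was fitted on 6 libraries with group as the only term, which leaves 3 residual degrees of freedom. The SE of a log2 fold change was worked back from the test, as its absolute value over the square root of the F statistic. The procedure was tried on counts simulated with the same spread for every gene, a simpler setting than these libraries. The trial does not show how reliable the calls here are. Exon lengths and positions came from GENCODE M21, which matched 23350 symbols (95.7%), and promoters from RefSeq. The planned ratios of deposited FPKM could be had only for *Syk* over *Zap70*, because *Fcgr2b* and *Fcgr3* are joined there, so the other ratios use counts per kilobase of exon. DESeq2 1.42.0, limma 3.58.1, other scalings and filters, FPKM on a log2 scale with pseudocounts of 1 and 0.1, and left-out libraries were tried as alternatives. Tables and figures used Python 3.11.15, pandas 2.3.3, numpy 2.4.6, scipy 1.17.1 and matplotlib 3.10.9.

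Named genes are the 7 members, up to 4 genes of each pathway list with the smallest p in tMCAO brain against tMCAO blood, with *Zap70*, *Cd247*, *Inpp5d*, *Ptpn6*, *Trem2* and *Lyn*, the 3 genes most correlated with each member, and the most abundant markers of other cells. Other genes were named after their values were seen. Some genes that the rule selects are not reported here. The members and lists were chosen with earlier results of these data known. Some listed genes (*Cd300c2*, *Trac*, *Trbc1*, *Trbc2*, *Ighm*, *Ighd*, *Ly6g*) were not analysed here. Sequenced reads carry no molecular identifiers, so intervals and floors cover counting error only; where both libraries of a group had no counts, the floor was 3.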

Additional observations from a re-analysis of the deposited data

How the results depend on the processing

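In tMCAO brain against tMCAO blood each of the 7 genes kept its direction and its call under every alternative that could be computed for it, and in tMCAO brain against sham blood only *Fcer1g* lost its call, without either brain or either sham blood library and with log2(FPKM + 1) (5 alternatives, adjusted p 0.0562 to 0.0761). On FPKM, where *Fcgr2b*, *Fcgr3* and *Tyrobp* had no entry of their own in every library, 4 genes were called higher in tMCAO brain than in tMCAO blood with either pseudocount, and 3 (pseudocount 1) or 4 (0.1) than in sham blood. The 4 calls in tMCAO blood against sham blood were less stable: limma-voom called 1 gene, FPKM 0 (pseudocount 1) or 2 (0.1), edgeR on the blood libraries alone 0, an adjusted p under 0.01 left 2, and leaving out 1 library gave 0 (without either brain library) to 5. DESeq2 called 5, on all samples or on the blood libraries, with *Tyrobp* as the fifth (adjusted p = 0.0133 and 0.0206). The only change of direction was *Fcer1g* without tMCAO blood 1 (log2 fold change 0.21, against -2.89 without tMCAO blood 2). With *Fcgr2b* and *Fcgr3* summed as 1 gene, the log2 fold change was 8.33 in tMCAO brain over tMCAO blood. The cause was not tested in any of these.

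The sources do not say whether replicate numbers link samples of different groups. Replicate differences of the groups had correlations over genes between -0.027 and 0.026, which cannot settle it with a single difference per group. A replicate block left 2 of the 4 blood calls, *Fcgr4* and *Syk* (*Fcgr1* adjusted p = 0.0783, *Fcgr2b* 0.0533), and changed no call of these genes in brain.

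The activating to inhibitory ratio in tMCAO brain was 6.28 per kilobase of the longest coding transcript, a length chosen after seeing the data, and in tMCAO blood 0.804 in FPKM; without 1 library it ran between 7.18 and 9.43 in tMCAO brain, 1.39 and 3.10 in tMCAO blood, and 1.58 and 3.41 in sham blood. *Syk* over *Zap70* in tMCAO brain was 50.9 per kilobase of exon (26.2 and 75.6 in the 2 libraries, on 9 and 3 counts of *Zap70*) and 66.7 per kilobase of the longest coding transcript, and in sham blood 0.0320 per kilobase of exon.

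Scaling by the T cell genes moved the median log2 fold change of all genes to 6.97 and 6.80 in the brain comparisons, where 11795 and 11731 genes were then called higher and 15 and 26 lower, and library size alone moved it to -0.44 with 2863 and 2709 called lower; no member changed direction under either. Over all alternatives, genes called in tMCAO blood against sham blood ran between 0 and 284 higher and 0 and 469 lower, and in tMCAO brain without 1 library between 945 and 3198 higher and 694 and 2145 lower. Between replicates, log2 ratios over all genes had an SD of 0.807 in tMCAO brain, 1.27 in tMCAO blood and 0.819 in sham blood. Counts near 0 in tMCAO blood limit *Fcgr1*, *Fcgr4* and *Syk* to bounds.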
